A study of Mus musculus with 2 samples.

Results

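The circadian clock genes described here are the transcription factors and repressors of the daily feedback loop: Arntl, Clock, Per1, Per2, Per3, Cry1, Cry2, Nr1d1, Nr1d2 and Dbp. They were chosen by name, from the annotation of the array with older synonyms accepted. Of the 10 genes, 9 were named on the array, through 10 probes, among 16390 genes named in all, and no expression value of Cry2 is given. All 9 had a ratio on both arrays. RNA came from bone marrow stromal cells of C57BL/6 mice that were unirradiated, or that had received 9.5 Gy of total body irradiation (TBI) and were sampled 1 day or 3 days later. Each irradiated time point was measured on 1 two-channel array, with unirradiated RNA in Cy5 and irradiated RNA in Cy3. The series names 6 mice in total. Their division among the conditions, any pooling, the way stromal cells were isolated and the time of day of irradiation and of marrow collection are all unstated in the labels. Thus irradiation, dye, time of day and array cannot be told apart in any value below. Both arrays carry unirradiated RNA in the same dye, so a value that is alike on both is not an independent repeat.

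The mammalian clock is a transcriptional feedback loop that runs in most cells, including those of bone marrow. CLOCK and ARNTL (also called BMAL1) bind E-box sequences and activate the Per and Cry genes, whose proteins return to the nucleus and repress CLOCK and ARNTL. A second loop runs through the nuclear receptors REV-ERB alpha and beta (Nr1d1 and Nr1d2), E-box targets that repress Arntl, and through the D-box activator DBP, itself an E-box target. In marrow, clock-driven sympathetic signals are known to time the release of haematopoietic stem cells through stromal Cxcl12.

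Every value is a log2 ratio between the channels of 1 array, with the median of all genes on that array set to 0. The words higher and lower, used of a count, mean a ratio of at least 2-fold, or 1 on the log2 scale. The numerator of the deposited ratio is not stated. A positive value is taken here to mean more transcript in the irradiated sample, a reading that is likely but not settled. Its basis is that targets of p53, a group induced by radiation, had a median of 1.60 at day 1 and 1.36 at day 3, above all genes and above mitotic genes (0.88 and -3.17) on both arrays. If the ratio ran the other way, every "higher" and "lower" would be exchanged. Neither time point has a second array, so no replicate error or p-value can be given. The only spread that could be measured, between different probes of the same gene, had a pooled SD of 0.76 at day 1 (85 genes) and 0.58 at day 3 (116 genes), and it leaves out differences between mice and hybridisations.

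Markers of blood and stromal cell types differed between the arrays. At day 1 granulocyte markers passed 2-fold upwards in 17 of 17 cases, with a median of 5.89, and pan-leukocyte markers in 16 of 16, with a median of 5.34 (range 4.36 to 8.17). At day 3 the medians were -1.36 over 13 granulocyte markers and -0.13 over 12 pan-leukocyte markers (range -3.09 to 0.93). Of the mesenchymal stromal markers, 15 of the 17 with a named probe were measured at day 1, with a median of -0.50 (range -1.22 to 2.31), and 14 at day 3, with a median of 0.68 (range -0.42 to 2.59). Endothelial markers had medians of 0.57 (17 genes) and 1.66 (18 genes), and erythroid markers -3.34 (9 genes) and -1.79 (11 genes). Osteoblast markers had medians of -1.07 (10 genes) and -0.07 (11 genes), and adipocyte markers 0.18 (11 genes) and 1.10 (13 genes). Macrophage markers had medians of 2.97 (12 genes) and 0.82 (10 genes). B lineage markers had 2 of 7 genes higher and 1 lower at day 1. At day 3, 0 of 5 were higher and 2 lower. Ratios give no level, so the presence of any cell type could not be read from them. The part of cell makeup in the clock gene values was not tested, and fewer cells of a type cannot be told apart from less RNA per cell.

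One day after irradiation the clock genes were spread in both directions. Cry1 and Per3, of the repressor arm, were at least 2-fold higher, and Nr1d1 and Dbp, both E-box targets, at least 2-fold lower. Thus 2 of 9 genes (22.2%) were higher, where 19.6% of the 10434 genes with a ratio were, and 2 of 9 (22.2%) were lower, where 11.1% of all genes were. In either direction, 4 of 9 (44.4%) were outside 2-fold, where 30.7% of all genes were, and each gene makes up 11.1% of the group. From Nr1d1 to Cry1 the values spanned 3.58 on the log2 scale, a span that does not depend on how the array is centred. At day 3 the span was 2.05, and only Cry1 was at least 2-fold higher and only Arntl at least 2-fold lower. These are 1 of 9 genes (11.1%) in each direction, where 7.35% of the 11404 genes with a ratio were higher and 6.85% lower. In either direction the shares were 22.2% and 14.2%.

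**Figure D1:**
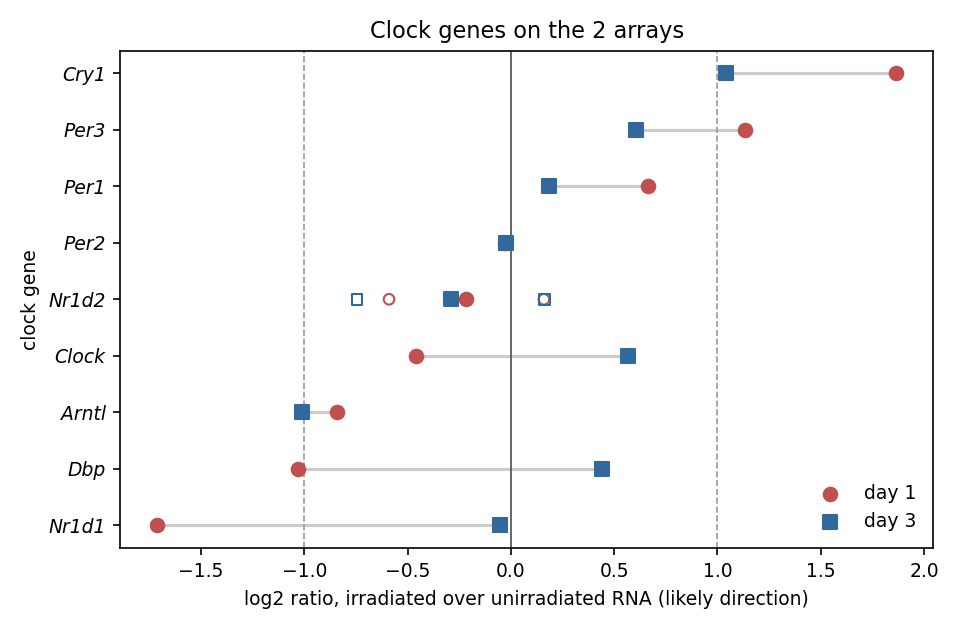
Log2 ratio of each clock gene (rows) at day 1 (red circles) and day 3 (blue squares), with a grey line joining both values. Dashed lines mark 2-fold, and open symbols are the separate probes of Nr1d2, the only gene with more than 1 probe. Cry1 and Per3 lie to the right on both arrays, Nr1d1 and Dbp lie far left at day 1 only, and Arntl lies left on both. The day 1 point of Per2 is hidden behind its day 3 point near 0. With ribosomal protein genes set to 0 all points move right by about 0.5, and Clock, Nr1d2 and Per2 at day 1 and Nr1d1, Nr1d2 and Per2 at day 3 change sign.

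Upstream sequences are shown for the 4 genes that lay outside 2-fold at day 1, so that the clock elements near their start sites can be seen. They are RefSeq sequences (GRCm38.p6), 250 bases before the start on the strand of the gene. Capitals mark matches to the E-box CACGTG, the related E-prime-box CACGTT, the D-box TTATGTAA or TTACGTAA, the core of the RORE, TAGGTCA, and the cyclic AMP response element TGACGTCA, all searched on both strands. No matches overlapped in the windows of the clock genes.
Cry1, chr10:85185055-85185304, minus strand: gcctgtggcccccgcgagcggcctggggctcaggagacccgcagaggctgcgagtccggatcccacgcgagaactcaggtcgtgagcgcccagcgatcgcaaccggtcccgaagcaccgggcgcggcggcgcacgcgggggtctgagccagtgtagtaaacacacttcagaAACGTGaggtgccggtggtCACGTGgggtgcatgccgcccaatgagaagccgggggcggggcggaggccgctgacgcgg
Per3, chr4:151044666-151044915, minus strand: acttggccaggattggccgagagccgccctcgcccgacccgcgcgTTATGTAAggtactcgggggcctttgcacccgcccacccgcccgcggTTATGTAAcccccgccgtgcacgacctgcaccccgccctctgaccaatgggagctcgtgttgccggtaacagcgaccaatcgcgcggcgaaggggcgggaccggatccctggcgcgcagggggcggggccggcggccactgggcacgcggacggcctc
Nr1d1, chr11:98775378-98775627, minus strand: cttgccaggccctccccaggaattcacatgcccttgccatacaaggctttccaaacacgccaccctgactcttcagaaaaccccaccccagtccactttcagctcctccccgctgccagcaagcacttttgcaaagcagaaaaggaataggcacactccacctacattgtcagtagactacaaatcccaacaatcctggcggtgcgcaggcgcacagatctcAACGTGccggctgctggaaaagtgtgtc
Dbp, chr7:45704997-45705246, plus strand: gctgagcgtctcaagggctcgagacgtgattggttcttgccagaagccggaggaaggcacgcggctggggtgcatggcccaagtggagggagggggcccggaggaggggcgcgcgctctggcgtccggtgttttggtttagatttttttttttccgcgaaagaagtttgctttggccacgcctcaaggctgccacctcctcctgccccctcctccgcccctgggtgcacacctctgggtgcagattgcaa

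The Cry1 window held an E-box that began 60 bases before the start and an E-prime-box at 79 bases. The Per3 window held 2 D-boxes, at 205 and 158 bases before the start, and the Nr1d1 window an E-prime-box at 28 bases. In the Dbp window none of these letters occurred. An E-box or E-prime-box thus occurred before both the highest clock gene at day 1 (Cry1) and the lowest (Nr1d1). The search was also run 50 bases past the start and over the other clock genes, of which Per2 was not in the table of promoters. In these 13 windows of 9 genes, some of which are alternative starts of 1 gene and share bases, the other matches were an E-box 166 bases before a start of Per1, an E-prime-box 166 bases before that of Cry2 and a RORE core 31 bases after a start of Arntl. Windows with a match made up 7.15% of all 32817 promoters of the same length (300 bases) for the E-box, 4.69% for the E-prime-box, 0.935% and 0.119% for the forms of the D-box, 2.61% for the RORE core and 1.79% for the cyclic AMP response element. A match describes letters and is not a bound site.

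In the activator arm, Arntl, the obligate partner of CLOCK, stood at -0.84 at day 1 and -1.01 at day 3. It was the only gene of the 9 that lay more than 0.5 below 0 on both arrays, although with ribosomal protein genes at 0 its values were -0.34 and -0.49. At day 1 15.3% of all genes lay below it, and at day 3 6.69%. Its day 3 value lies at the threshold itself, 2.02-fold lower, and it was not past 2-fold with the values as deposited (-0.99) or over genes with a ratio on both arrays (-0.99). The day 3 value was the lowest of the clock genes, 0.72 below the next, Nr1d2, whose probes lay 0.91 apart.

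Clock, which encodes the other subunit of the activator and is a histone acetyltransferase as well, did not follow Arntl. It stood at -0.46 at day 1 and at 0.57 at day 3, within 2-fold at both times. With ribosomal protein genes at 0 its values were 0.05 and 1.09, the latter past 2-fold. From day 1 to day 3 it was higher by 1.03, which became 0.85 with the density peak of each array at 0 and 0.99 over genes with a ratio on both arrays, both within 2-fold. At day 3 the difference between Clock and Arntl on the same array was 1.58, and at day 1 it was 0.39. The spread between probes of a gene, 0.58 at day 3 and 0.76 at day 1, is that of a single value. It would be larger for a difference of 2 genes.

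Among the repressors, Cry1, the stronger transcriptional inhibitor of CLOCK and ARNTL, was the highest clock gene on both arrays. It stood at 1.87 (3.65-fold) at day 1 and at 1.04 (2.06-fold) at day 3, and 91.3% and 93.2% of all genes lay below it. Its value stayed past 2-fold under each centring tried, between 1.85 and 2.37 at day 1 and between 1.03 and 1.56 at day 3. With the median of all genes at 0, Cry1 was the only clock gene outside 2-fold at both times, and with ribosomal protein genes at 0 Per3 was too (1.64 and 1.13). Cry1 was lower at day 3 than at day 1 by 0.83, within 2-fold.

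The Period genes, whose proteins carry the CRY proteins into the nucleus, were graded. Per3 stood at 1.13 (2.19-fold) at day 1 and at 0.60 at day 3. Per1, which glucocorticoid and cyclic AMP signals induce, stood at 0.66 and 0.19. Per2 stood at -0.03 on the first array and -0.02 on the second, the closest to 0 of the 9 genes on both, though not with ribosomal protein genes at 0 (0.48 and 0.50) nor, at day 1, with the density peak at 0 (0.13). The order Per3, Per1, Per2 was the same on both arrays. Both carry unirradiated RNA in the same dye, so the arrays are not independent for this order. The steps between neighbours (0.47 and 0.69 at day 1, 0.42 and 0.21 at day 3) were smaller than the spread between probes. Per3 exceeded Per2 by 1.16 at day 1 and by 0.63 at day 3, against spreads of 0.76 and 0.58 for a single value. Per1 passed 2-fold at day 1 with ribosomal protein genes at 0 (1.17), and Per3 did so at day 3 (1.13).

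Of the nuclear receptors, Nr1d1, which encodes the haem-binding repressor of Arntl, was the lowest clock gene at day 1. It stood at -1.71 (3.28-fold lower), with 2.08% of all genes below it, and its value stayed past 2-fold under each centring tried (-1.72 to -1.20). At day 3 it stood at -0.05, and at 0.47 with ribosomal protein genes at 0. The difference between the days, 1.66 or 3.16-fold, was the largest among the clock genes, and 97.5% of the 9800 genes measured on both arrays lay below it. Nr1d1 and its target Arntl were both below 0 at day 1, and at day 3 Nr1d1 was near 0 while Arntl was the lowest of the 9.

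Nr1d2, the paralogue with overlapping function, had 2 probes that disagreed. One stood at -0.59 at day 1 and 0.16 at day 3, the other at 0.16 and -0.74. They lay 0.75 apart at day 1 and 0.91 apart at day 3, and moved in opposite directions between the days, by 0.75 and by -0.90. Their mean was -0.21 at day 1 and -0.29 at day 3, and no direction can be given for this gene. Which transcripts the probes match was not analysed here. The other clock genes rest on 1 probe each, so no such comparison could be made for them.

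Dbp, the D-box activator and one of the transcripts with the widest daily swing in many tissues, stood at -1.03 (2.05-fold lower) at day 1 and at 0.44 at day 3. The day 1 value lies at the threshold, and was -0.87 with the density peak at 0, -0.98 over genes with a ratio on both arrays and -0.52 with ribosomal protein genes at 0. The difference between the days was 1.47 (2.78-fold), and no centring tried put it under 1.30, and 95.8% of genes measured on both arrays lay below it. Nr1d1 and Dbp, both E-box targets, were thus the 2 lowest clock genes at day 1 and the 2 with the largest differences between the days. Of the other E-box targets, Per1, Per3 and Cry1 lay above 0 at day 1 and were lower at day 3, by 0.48, 0.53 and 0.83, each within 2-fold, while Per2 stayed near 0 and the probes of Nr1d2 disagreed.

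**Figure D2:**
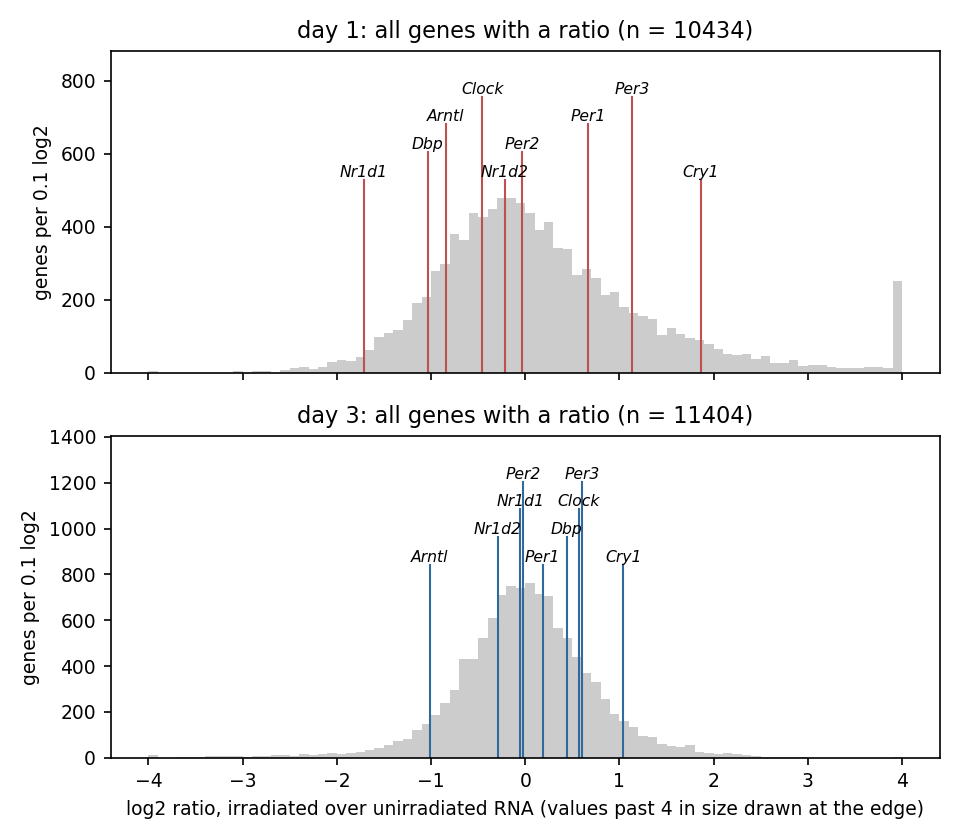
Histograms of the log2 ratios of all genes at day 1 (top, 10434 genes) and day 3 (bottom, 11404 genes), in bins of 0.1, with the clock genes as coloured lines whose heights only separate the labels. At day 1 the clock genes reach from the lower tail (Nr1d1) to the upper shoulder (Cry1) of the distribution. At day 3 the distribution is narrower and 7 of 9 clock genes lie within 2-fold.

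Ratios of all genes, not of the clock genes alone, were smaller in size at day 3 than at day 1. The median size of the ratio, regardless of sign, was 0.84 over the 9 clock genes at day 1 against 0.64 over all genes, and 0.44 against 0.41 at day 3. The median over the 9 clock genes with sign was -0.21 at day 1 and 0.19 at day 3, against 0 for all genes. The day 1 median turned to 0.29 with ribosomal protein genes at 0. Between the days, Nr1d1, Dbp and Clock, 3 of 9 genes (33.3%), lay at least 2-fold above their day 1 value at day 3, and none at least 2-fold below it, where 12.1% and 16.8% of all genes were, or 28.9% in either direction. The 3 became 2, without Clock, with the density peak at 0 or over genes on both arrays. The median difference of the 9 was -0.08. The other 6 differed by less than 2-fold, from -0.83 (Cry1) to 0.005 (Per2). Both arrays carry unirradiated RNA in the other channel, which may be the same extract, so an error of that RNA cancels in this difference if it is, and otherwise adds to it.

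**Figure D3:**
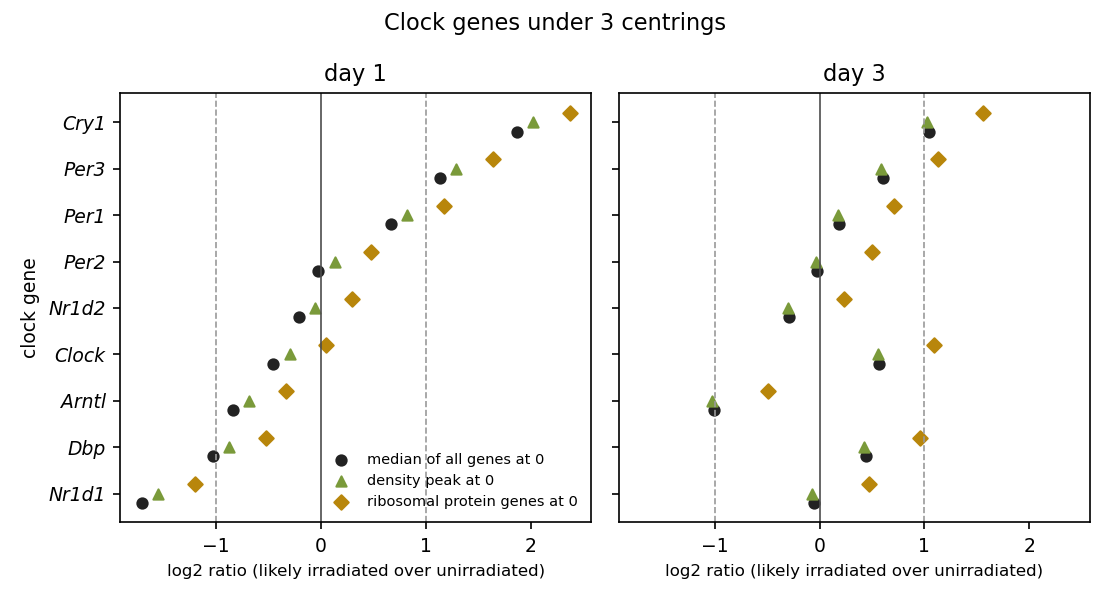
Log2 ratio of each clock gene at day 1 (left) and day 3 (right) with the median of all genes at 0 (black circles), the density peak at 0 (green triangles) or ribosomal protein genes at 0 (brown diamonds). Dashed lines mark 2-fold. Cry1 stays past 2-fold on both arrays and Nr1d1 at day 1, while Dbp at day 1 and Arntl at day 3 lie within 2-fold with ribosomal protein genes at 0, and the genes near 0 change sign.

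Other transcription factors of the clock were less well measured, since 4 of the 10 with a named probe were measured at day 1 and 6 at day 3. Nfil3, the repressor that competes with DBP at D-boxes and also acts in myeloid and lymphoid cells, stood at 2.06 at day 1 and 0.49 at day 3. Dbp and Nfil3 thus lay on opposite sides at day 1, 3.09 apart, and both lay above 0 at day 3, 0.05 apart. The part of cell makeup in the Nfil3 values was not tested. Bhlhe40, a repressor that binds E-boxes, stood at -1.52 and -0.35, the same side as Nr1d1 at day 1. Rora, the activator that shares its element with the REV-ERB receptors, stood at -0.27 at day 1 and 1.03 at day 3, and Tef, a D-box activator related to DBP, at -0.04 and 0.93. The list had 1 gene higher and 1 lower of 4 at day 1 (median -0.16, or 0.35 with ribosomal protein genes at 0) and 1 higher and 0 lower of 6 at day 3 (median 0.46). Of all genes, 19.6% were higher and 11.1% lower at day 1, and 7.35% and 6.85% at day 3. Npas2, Arntl2, Bhlhe41 and Ciart had no ratio on either array.

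Of the listed kinases and ubiquitin ligases of clock proteins, 10 of 11 lay within 2-fold at day 1, as did 69.3% of all genes, with 1 higher and 0 lower (median 0.27). At day 3, 10 of 12 lay within 2-fold, as did 85.8% of all genes, with 1 higher and 1 lower (median 0.18). Csnk1d and Csnk1e, the casein kinases that phosphorylate PER, stood at 0.02 and 0.88 at day 1 and at 0.45 and 0.46 at day 3. Btrc, a ubiquitin ligase subunit that recognises phosphorylated PER, stood at -0.81 and -1.35. Gsk3b was at 1.03 at day 1 and 0.003 at day 3, and Prkaa2, a catalytic subunit of the AMP-activated kinase, at -0.14 and 1.02.

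Of the cofactors of clock proteins, 4 of 12 were at least 2-fold higher and 1 lower at day 1 (median 0.64, or 1.14 with ribosomal protein genes at 0), and 1 higher and 1 lower of 12 at day 3 (median 0.33). The shares of all genes were 19.6% higher and 11.1% lower at day 1, and 7.35% and 6.85% at day 3. Ncor1, the corepressor that REV-ERB receptors recruit, stood at 2.22 at day 1 and 0.83 at day 3, and its partner deacetylase Hdac3 at -0.78 and -0.29. The deacetylase Sirt1 was at 1.07 and 1.14, the coactivator Crebbp at 1.15 and 0.33, and Sfpq, found in PER complexes, at 1.28 and 0.49. Tipin, which also acts at replication forks, stood at -1.001 and -1.09.

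All 10 clock output genes had ratios on both arrays. At day 1, 4 were at least 2-fold higher and 1 lower (median 0.25), and at day 3, 1 was higher and 0 lower (median 0.45). For all genes the shares were 19.6% and 11.1% at day 1, and 7.35% and 6.85% at day 3. Nampt, the rate-limiting enzyme of NAD salvage, stood at 2.02 and 0.79, Coq10b at 2.08 and 0.82, Noct, which encodes the rhythmic protein nocturnin, at 1.54 and -0.03, and Por, the electron donor of cytochrome P450 enzymes, at 1.26 and 0.36. Klf15 differed from these in direction, at -1.53 and 0.42, that is, lower at day 1 and higher at day 3 than at day 1, as were Nr1d1 and Dbp. A higher value at day 3 than at day 1 was not particular to clock genes. Of 13 mesenchymal stromal markers, 7 were at least 2-fold higher at day 3 than at day 1 and 0 lower (median difference 1.00). The shares of all genes were 12.1% and 16.8%. The deubiquitinase Usp2, which follows a daily rhythm in many tissues, stood at 0.32 and 1.45. Tspan4 was at -0.72 and 0.37, and Wee1, the mitotic inhibitor driven by E-boxes, at 0.18 and 0.73. Output genes thus lay on both sides at day 1, as the clock genes did. The 4 higher ones lay on the array where pan-leukocyte markers had a median of 5.34, and the part of those cells in their values was not tested.

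Genes of inputs that can reset the clock were read in the same way. Their counts stand beside shares of all genes of 19.6% higher and 11.1% lower at day 1, and 7.35% and 6.85% at day 3. At day 1 the glucocorticoid-induced list had 2 of 9 genes past 2-fold upwards (Dusp1 at 1.45 and Nfkbia at 1.36) and 0 downwards, with a median of 0.05. At day 3, 1 of 9 was higher (Ddit4 at 1.42) and 0 lower, and all 9 lay above 0, with a median of 0.65 (1.17 with ribosomal protein genes at 0). A list wholly on 1 side was not particular to these genes at day 3. All 18 endothelial markers also lay above 0 (lowest 0.66), and all 11 erythroid markers lay below 0 (highest -0.56). The part of cell makeup in the values of the glucocorticoid-induced list was not tested. Tsc22d3 and Fkbp5, widely used readouts of glucocorticoid signalling, stood at 0.05 and 0.96 at day 1 and at 0.38 and 0.65 at day 3. At day 1 Ddit4 stood at 0.44, and Errfi1 (-0.67), Mt1 (-0.59), Klf9 (-0.47) and Sgk1 (-0.43) lay below 0. The immediate early list had 3 of 10 genes past 2-fold upwards at day 1 and 0 downwards, with a median of 0.16. These were Crem (3.15), a cyclic AMP responsive factor with no ratio at day 3, Sik1 (2.04) and Nr4a1 (1.55). Fos and Egr1 stood at 0.16 and -0.12, the latter within the shifts that centring makes. Of the rest, Junb stood at 0.79 and Ier2 at 0.16, and Jun (-0.47), Fosb (-0.66) and Atf3 (-0.79) lay below 0. None of the 9 with a ratio at day 3 was outside 2-fold (median 0.30, range -0.30 to 0.65).

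**Figure D4:**
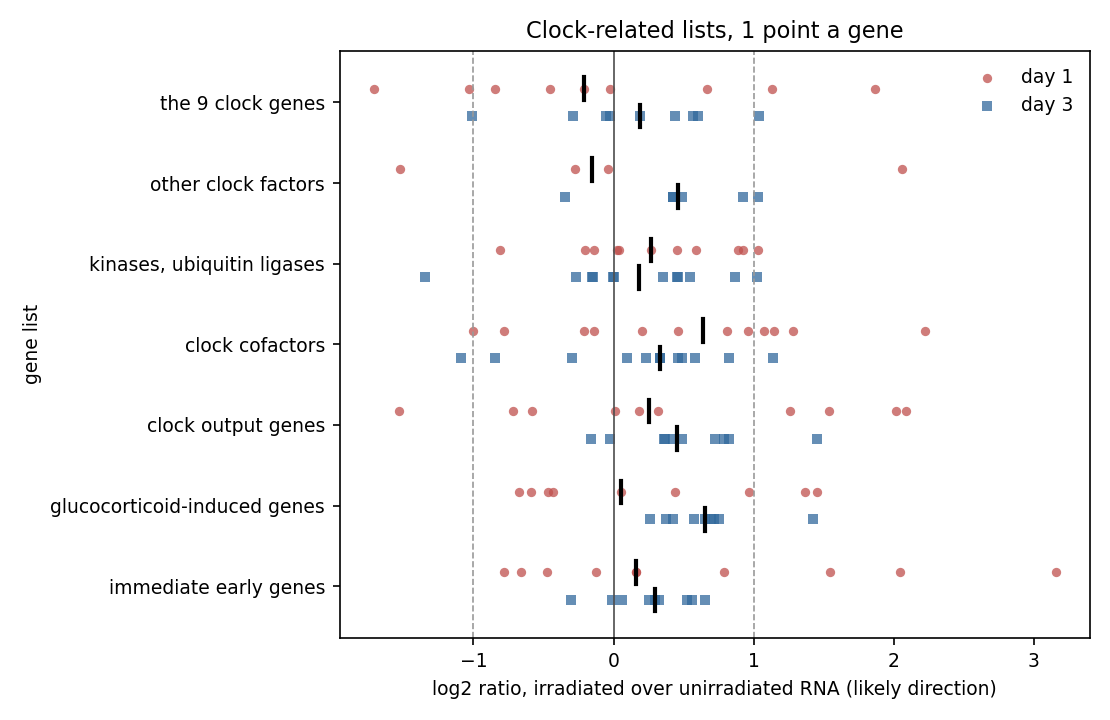
Log2 ratios of the genes of each clock-related list at day 1 (red circles) and day 3 (blue squares), 1 point a gene, with a black bar at each median and dashed lines at 2-fold. Every list spreads on both sides of 0 at day 1, the day 1 medians lie between -0.21 and 0.64, and the range from lowest to highest gene is narrower at day 3 in every list except the kinases and ubiquitin ligases. With ribosomal protein genes at 0 all points move right by about 0.5 and the day 1 medians of the clock genes and other clock factors turn positive.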

How the data were processed

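RNA of bone marrow stromal cells was measured on 2 two-channel oligonucleotide arrays. The authors deposited 1 log ratio per probe, read here as log2; base, numerator, scanner, background correction and normalisation are not given in the sources used here. No ratio was given for 40.5% of 23473 probes at day 1 and 34.3% at day 3, and the deposited medians (0.0003 and -0.0001) show that values were already centred. No intensities were used, so signal over background is unknown. Precision is limited by there being only 2 arrays.

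GEO's platform table gave symbols for 16631 probes, and these were updated through RefSeq (GRCm38.p6; 12622 current, 3947 by an older name, 62 kept as given). Probes of a gene were averaged and each array's gene median (-0.0119 and 0.0162) subtracted, with pandas 2.3.3 under Python 3.11.15. The script was tested on simulated ratios. No test was run, since each time point has 1 array. Named genes were all clock genes and, of the other clock, glucocorticoid and immediate early lists, every gene past 2-fold on either array, plus some chosen for their role after their values were seen. The remaining glucocorticoid and immediate early genes with a ratio at day 1 were named as well. Members and lists were chosen with earlier results of these data known. Alternatives were 3 centrings, 2 probe summaries, genes on both arrays, exact symbols and a 1.5-fold threshold.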

Additional observations from a re-analysis of the deposited data

Results flagged for a closer look

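Clock and Dbp lay on opposite sides of 0 at the 2 time points and differed by at least 2-fold between them. Clock was higher at day 3 than at day 1 by 1.03 (from -0.46 to 0.57), and Dbp by 1.47 (from -1.03 to 0.44). Of all 9800 genes measured on both arrays, 28.9% differed by at least 2-fold in either direction. Nr1d1 differed more, by 1.66, but lay below 0 at both times (-1.71 and -0.05). With 1 array per time point none of these differences was tested. The difference of Clock fell within 2-fold with the density peak at 0 (0.85), and over genes with a ratio at both times (0.99). With ribosomal protein genes at 0 the day 1 value of Clock was 0.05, so that its values no longer lay on opposite sides.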

How the results depend on the processing

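With no replicates, a shift of a ratio was set against the spread between probes (0.76 and 0.58), which exceeds every shift that centring made, so this comparison says nothing about stability. With ribosomal protein genes at 0 the medians of cofactors at day 1 (1.14) and of glucocorticoid-induced genes at day 3 (1.17) passed 2-fold. Cry1 on both arrays, and Nr1d1 and Per3 at day 1, kept their side of 2-fold under every alternative that leaves the 2-fold rule in place. Small counts did move, and those that changed by a ratio above 1.5, or to or from 0, are listed here. Smaller changes are left out, except for the clock genes at day 1. There, 3 rather than 2 were higher with ribosomal protein genes at 0, and 3 were higher and 3 lower at 1.5-fold. With values as deposited, 0 clock genes were at least 2-fold lower at day 3, where 750 of all 11404 genes were. With the density peak at 0 (all genes shifted by 0.16 at day 1), 1 clock gene and 0 cofactors were lower and 3 kinases and ligases higher at day 1. Of all 10434 genes, 2393 were then higher and 832 lower at day 1, against 2047 and 1157 in the main setting. Higher genes then made up 74.2% of all genes past 2-fold against 63.9%. With ribosomal protein genes at 0, all genes shifted by 0.51 at day 1 and 0.52 at day 3. Of all 10434 genes at day 1, 3319 were then higher and 374 lower. Of all 11404 genes at day 3, 2547 were higher and 285 lower, against 838 and 781 in the main setting. Higher genes then made up 89.9% of the genes past 2-fold at either time, against 63.9% and 51.8%. Among the lists, 1 clock gene and 0 cofactors were then lower and 4 kinases and ligases higher at day 1. At day 3 the higher genes were then 3 clock genes, 3 other factors, 3 kinases and ligases, 4 cofactors, 5 output, 6 glucocorticoid-induced and 3 immediate early genes, with 0 lower among clock genes, kinases and ligases, and cofactors. Over genes on both arrays, 1 clock gene and 0 cofactors were lower at day 1, and 0 clock genes at day 3. Of all 9800 such genes, 1023 were then lower at day 1 and 632 at day 3. With exact platform symbols, which lose genes listed under older names, 0 other factors were lower and 1 output gene was higher at day 1. Of all 10451 genes with a ratio, 2052 were then higher and 1157 lower at day 1. At 1.5-fold, which 29.4% of all genes passed upwards and 24.3% downwards at day 1, and 17.9% and 17.5% at day 3, day 1 gave 4 kinases and ligases higher and 1 lower, and 2 lower among each of cofactors, output, glucocorticoid-induced and immediate early genes. Day 3 gave 2 clock genes, 2 other factors, 2 kinases and ligases, 2 cofactors, 4 output, 5 glucocorticoid-induced and 1 immediate early gene higher and 2 cofactors lower. Day 3 minus day 1 gave 3 of 9 clock genes higher and 1 lower. For that difference, 23.8% of all genes passed 1.5-fold upwards and 26.9% downwards. No paired analysis was possible because each group has 1 array.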
